A study of Mus musculus with 6 samples.

Results

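The IL-6 family of cytokines and their receptors was examined in cancer-associated fibroblasts (CAFs) of mouse colonic adenomas through 10 genes, selected by gene symbol from the 49548 genes of the table. They are the ligands Il6, Il11, Lif, Osm and Clcf1, the shared signal transducer Il6st (gp130), and the receptor chains Il6ra, Il11ra1, Osmr and Lifr. The mice carried Col6a1-cre and the Rosa26-mTmG reporter on a C57/BL6 background, and adenomas were induced by the carcinogen azoxymethane and dextran sodium sulfate (AOM/DSS), which both subsets had therefore received. Col6a1+ CAFs (GFP+, 3 libraries) are cells in which the Cre driven by Col6a1 regulatory sequence had been active at some time, and Col6a1- CAFs (Tomato+, 3 libraries) are cells in which it had not. Adult mice were used, the cells of several mice were pooled in each library, and cells with the markers CD45, CD31, Ter119 or EpCAM had been removed by sorting. No untreated colon is part of the comparison, and Cre-marked cells include pericytes as well as fibroblasts, so that each subset is a mixture.

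Several ligands of this family first bind a private receptor chain, and the signalling complex then forms with gp130, alone or together with the OSM or LIF receptor chain. The complex activates Janus kinases, which phosphorylate STAT3, and the induced SOCS3 protein binds gp130 and closes a negative feedback loop. IL-6 and IL-11 made by stromal cells are known to act on the epithelium of the inflamed colon and on colitis-associated tumors.

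The sequences just before the annotated start sites of Il6 and Il6st are shown. These genes were the ligand and the signal transducer called higher in Col6a1+ CAFs as deposited (criterion given below). Neither gene was called under every alternative setting. Each sequence is the 250 bases before the start in the RefSeq promoter table (build GRCm38.p6, plus strand). The positions are chr5:30012864-30013113 for Il6 and chr13:112463820-112464069 for Il6st. Capitals mark matches on either strand to TGANTCA (AP-1), TTGNNCAA (C/EBP), GGNNTTTCC (NF-kB) and TTCNNNGAA (STAT).
Il6: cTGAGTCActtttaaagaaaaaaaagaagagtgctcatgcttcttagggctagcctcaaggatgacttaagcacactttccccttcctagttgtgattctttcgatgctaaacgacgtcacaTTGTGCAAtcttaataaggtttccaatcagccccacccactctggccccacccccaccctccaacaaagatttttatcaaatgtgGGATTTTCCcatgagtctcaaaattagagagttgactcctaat
Il6st: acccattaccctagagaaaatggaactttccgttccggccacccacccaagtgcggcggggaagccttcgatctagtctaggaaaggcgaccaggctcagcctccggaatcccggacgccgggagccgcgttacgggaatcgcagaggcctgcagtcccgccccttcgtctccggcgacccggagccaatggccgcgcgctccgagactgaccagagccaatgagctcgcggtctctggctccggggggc
From 5′ to 3′, the Il6 window held an AP-1 match, a C/EBP match and an NF-kB match, the last between 43 and 35 bases before the start. The Il6st window held no match to these letters. It was also richer in G and C (66% of bases against 42.8% in Il6) and held 26 CpG dinucleotides against 3. Of 32851 windows of the same length, 6.75% held the AP-1 letters, 5.65% the C/EBP letters, 4.93% the NF-kB letters and 7.02% the STAT letters. The 8 members with a window in the table had 11 windows. Of these members, Il6, Il11 and Lif held an AP-1 match in any window, and none held a STAT match. These are counts of genes, whereas the percentages are shares of windows. A match is a description of letters, and binding was not measured.

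Sequencing by QuantSeq captured transcripts at their polyadenylated 3′ end, and the values are normalized counts, that is, reads per gene divided by the authors' size factor of the library. Their sums lay between 3039152 and 3425249 per library, and 14530 genes were detected in Col6a1+ replicate 1 against 18770 to 20511 in the other five. A listed 0 allows up to 3 counts, for counting error only. Col6a1 itself had 861, 1287 and 1941 normalized counts in Col6a1+ CAFs and 182, 321 and 102 in Col6a1- CAFs, which did not overlap. Log2 fold changes are the mean log2 value (count plus 1) of Col6a1+ CAFs minus that of Col6a1- CAFs, with the standard error (SE), and understate the change of low genes. A gene was called at a limma adjusted p under 0.05 over 26402 genes. All p-values measure the spread between these pooled libraries.

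Il6 was higher in Col6a1+ than in Col6a1- CAFs on each scale used, with a log2 fold change of 4.87 as deposited. Il6st and Osmr were also called higher on the deposited scale, on which no member was called lower. When libraries were scaled to pan-fibroblast markers instead, Il6st and Osmr were not called and Il11ra1 was called lower. On that scale 0.883% of all genes tested were called higher and 26.7% lower, and their median log2 fold change was -1.2. A limma fit blocked by replicate over all genes tested called 0 genes in all, and so 0 of 10 members. In that fit 6 members and 4418 of the 26402 genes had an unadjusted p under 0.05. As deposited, 3 of 10 members were called, where 2.66% of all genes tested were called higher and 1.96% lower. A fit over only the 13515 genes that averaged at least 10 normalized counts also called 3 members. It called 815 of these genes higher and 608 lower. The median log2 fold change was 1.10 over the 10 members, -0.27 over all genes tested and -0.15 over the genes averaging at least 10. In Il6, Il6st, Osmr and Lifr the subsets did not overlap and Col6a1+ CAFs were higher, against 7.91% of all genes. In 8 of 10 members, all but Osm and Clcf1, the Col6a1+ library was the higher in each of the 3 pairs with the same replicate number, as for 12.3% of all genes. At an unadjusted p under 0.05 and a log2 fold change over 1, 5 of 10 members were higher, against 6.09% of all genes. In these bulk libraries fewer cells of a type and less RNA per cell cannot be told apart.

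**Figure D1:**
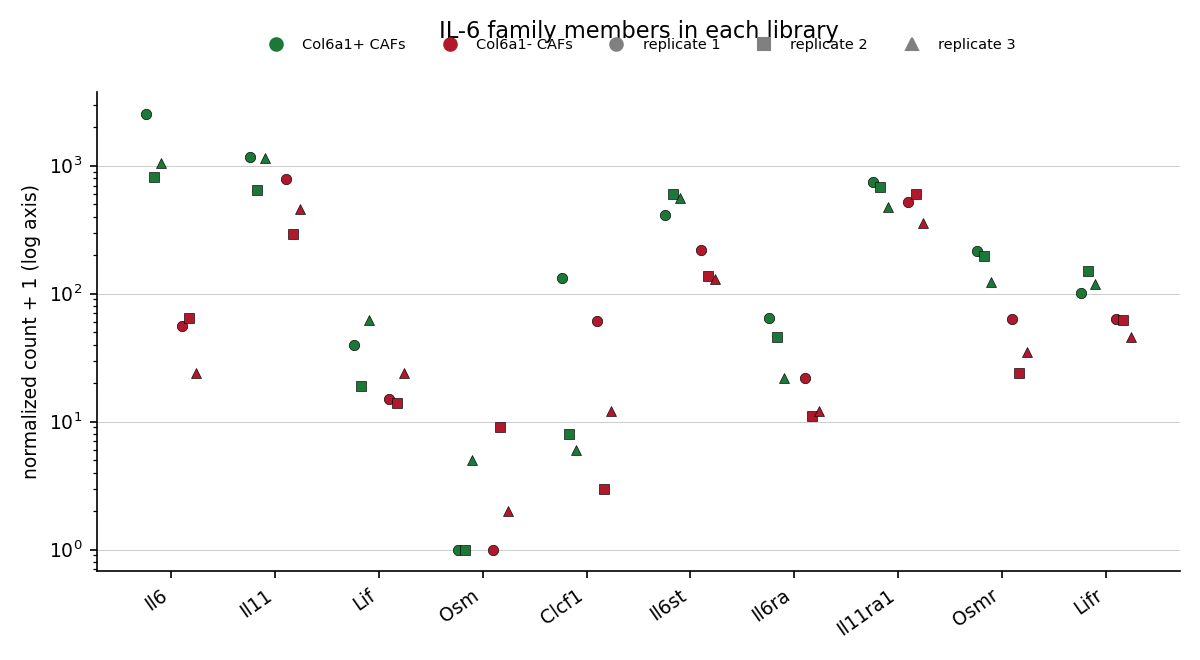
Normalized counts plus 1 (vertical, log axis) of the 10 members in the 3 Col6a1+ (green) and 3 Col6a1- (red) CAF libraries, with the marker shape giving the replicate number. The subsets are apart for Il6, Il6st, Osmr and Lifr and overlap for the other members, and the circles of replicate 1 stand high in both subsets for Clcf1.

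Il6 (ENSMUSG00000025746, chr5:30013114-30019981 of mm10, plus strand), the founding ligand of the family, had 2525, 811 and 1046 normalized counts in Col6a1+ replicates 1, 2 and 3. In Col6a1- replicates 1, 2 and 3 it had 55, 63 and 23. Its lowest Col6a1+ library was thus far above its highest Col6a1- library, and Col6a1+ replicate 1 stood above the other libraries of its subset. The means were 1460 ± 929 and 47.0 ± 21.2 (SD, n = 3 each), a 31.1-fold ratio, and the log2 fold change was 4.87 (SE 0.50, 95% interval 3.76 to 5.98, limma adjusted p = 0.000953). By pair, the log2 differences were 5.50, 3.67 and 5.45. When replicate number was added to the model as a block, the adjusted p was 0.0612 over all genes and 0.00113 over the 13515 genes that averaged at least 10 normalized counts. Without Col6a1- replicate 1 it was 0.0693 and the log2 fold change 5.04, in a fit that called 12 genes in all. Without any other single library Il6 stayed called. It was called in 21 of 24 alternatives, with an adjusted p of at most 0.0762. These 24 include settings added after seeing the data. Each omission of 1 library enters both with and without the genes that had no residual variance.

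Il11 (chr7:4772373-4782857, minus strand), which signals through its own receptor chain and gp130, had 1163, 643 and 1145 normalized counts in Col6a1+ CAFs and 784, 289 and 454 in Col6a1- CAFs. Replicate 2 was the lowest library in both subsets, and the ranges overlapped, since 784 lay above 643. The log2 fold change of 1.02 (SE 0.40, 95% interval 0.13 to 1.90) was not called (limma adjusted p = 0.222). The adjusted p was 0.137 with the block over all genes and 0.0344 with the block over genes averaging at least 10, where 7.26% of genes were called higher and 6.44% lower. Compared within each library, log2 Il6 minus log2 Il11 was 1.12, 0.33 and -0.13 in Col6a1+ CAFs and -3.81, -2.18 and -4.24 in Col6a1- CAFs. The difference of 3.85 between the subsets had an exact two-sided permutation p of 0.10, the smallest that 3 against 3 libraries can give. The same contrast of Il6 with Il6st was 3.16, again with an exact permutation p of 0.10, which is also the value after adjustment over these 2 contrasts.

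Lif (chr11:4257557-4272514, plus strand), a ligand of the LIF receptor, had 39, 18 and 61 normalized counts in Col6a1+ CAFs and 14, 13 and 23 in Col6a1- CAFs. The ranges overlapped, and the log2 fold change of 1.07 (SE 0.67, 95% interval -0.42 to 2.57) was not called (limma adjusted p = 0.495). Osm (chr11:4236420-4241026, plus strand), which is known mainly as a product of myeloid cells, had 0, 0 and 4 normalized counts in Col6a1+ CAFs and 0, 8 and 1 in Col6a1- CAFs. Osm was therefore near the limit of detection in both subsets. The log2 fold change of -0.62 had a 95% interval from -2.80 to 1.57 (limma adjusted p = 0.734).

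Clcf1 (chr19:4214238-4223490, plus strand), the cardiotrophin-like ligand of the CNTF receptor, had 132, 7 and 5 normalized counts in Col6a1+ CAFs and 60, 2 and 11 in Col6a1- CAFs. Replicate 1 was the high library of both subsets, and the other four held 11 or fewer. Its log2 fold change of 0.51 (SE 1.37, 95% interval -2.53 to 3.55, limma adjusted p = 0.855) was -0.91 without Col6a1+ replicate 1 and -0.54 without Col6a1- replicate 2. A transcript of another annotated gene, AC109138.7, was 100% identical to Clcf1 over 313 bases.

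Il6st (chr13:112464070-112510086, plus strand), whose product gp130 serves all 5 ligands, had 409, 599 and 556 normalized counts in Col6a1+ CAFs. In Col6a1- CAFs it had 218, 137 and 128. The subsets did not overlap, and they were closest in replicate 1, which was the lowest Col6a1+ and the highest Col6a1- library. The means were 521 ± 99.6 and 161 ± 49.6 (SD, n = 3 each), a 3.24-fold ratio, with a log2 fold change of 1.71 (SE 0.33, 95% interval 0.98 to 2.44, limma adjusted p = 0.0161). Pair by pair the log2 differences were 0.90, 2.12 and 2.11. The adjusted p was 0.111 with the block and 0.0134 with the block over genes averaging at least 10. Il6st was called without Col6a1+ replicate 1 (adjusted p = 0.0355). The adjusted p was 0.0925 and 0.0955 without Col6a1+ replicates 2 and 3, and 0.0779, 0.111 and 0.132 without Col6a1- replicates 1, 2 and 3. Over these omissions the log2 fold changes were 1.57 to 1.95. With the genes of no residual variance also left out, a setting added after seeing the data, 6 of 6 fits called Il6st. Its limma adjusted p then ran from 0.000528 to 0.0452. Of 24 alternatives, 16 called Il6st, and the highest adjusted p was 0.761. Among the settings not added after seeing the data, Il6st was not called with no filter, with the block, or without any 1 library other than Col6a1+ replicate 1.

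Osmr (chr15:6813577-6874969, minus strand), the chain that pairs with gp130 for OSM, had 216, 197 and 122 normalized counts in Col6a1+ CAFs. The Col6a1- CAF libraries had 62, 23 and 34, so that each lay below all Col6a1+ libraries. With means of 178 ± 49.7 and 39.7 ± 20.1 (SD, n = 3 each), the ratio was 4.50-fold and the log2 fold change 2.21 (SE 0.47, 95% interval 1.17 to 3.26, limma adjusted p = 0.0251). Its pairs differed by 1.78, 3.04 and 1.81 on the log2 scale. The adjusted p was 0.0974 with the block and 0.0137 with the block over genes averaging at least 10. With the gene filter alone, no fit that left out 1 library called Osmr: without Col6a1+ replicates 1, 2 and 3 the adjusted p was 0.0817, 0.127 and 0.0777, and without Col6a1- replicates 1, 2 and 3 it was 0.0892, 0.131 and 0.157, with log2 fold changes of 1.89 to 2.59. With the genes of no residual variance also left out, a setting added after seeing the data, 4 of 6 fits called Osmr. In all, 13 of 24 alternatives called it, with adjusted p-values up to 0.398. Among the settings not added after seeing the data, Osmr was not called with no filter, with the block, or without any 1 library.

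Lifr (chr15:7129559-7197489, plus strand), the receptor chain for LIF that also serves other ligands, had 101, 150 and 118 normalized counts in Col6a1+ CAFs and 62, 61 and 45 in Col6a1- CAFs. These ranges did not overlap either, but the log2 fold change of 1.12 (SE 0.39, 95% interval 0.25 to 1.98) was not called (limma adjusted p = 0.161). Il6ra (chr3:89864059-89913196, minus strand), the private chain that confers binding of IL-6, had 64, 45 and 21 normalized counts in Col6a1+ CAFs and 21, 10 and 11 in Col6a1- CAFs. The lowest Col6a1+ library equalled the highest Col6a1- library, and the log2 fold change of 1.50 (SE 0.68, 95% interval -0.01 to 3.01) was not called (limma adjusted p = 0.315). An antisense gene, Gm42809, overlaps Il6ra and had at most 3 normalized counts in any library.

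Il11ra1 (chr4:41699989-41769474, plus strand), the private chain for IL-11, had 749, 685 and 475 normalized counts in Col6a1+ CAFs and 522, 598 and 356 in Col6a1- CAFs. The ranges overlapped, and the log2 fold change was 0.38 (SE 0.32, 95% interval -0.32 to 1.07, limma adjusted p = 0.603). Counts of Il11ra1 are uncertain, because its annotated region contains Galt on the same strand (24 to 112 normalized counts) and Dctn3 on the other (194 to 525). Il11ra2 is 99% identical to it over 1299 bases and had 52, 42 and 15 normalized counts in Col6a1+ CAFs and 28, 34 and 23 in Col6a1- CAFs. A further copy, Gm13305, is 98.6% identical over 2578 bases and had at most 8 normalized counts.

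**Figure D2:**
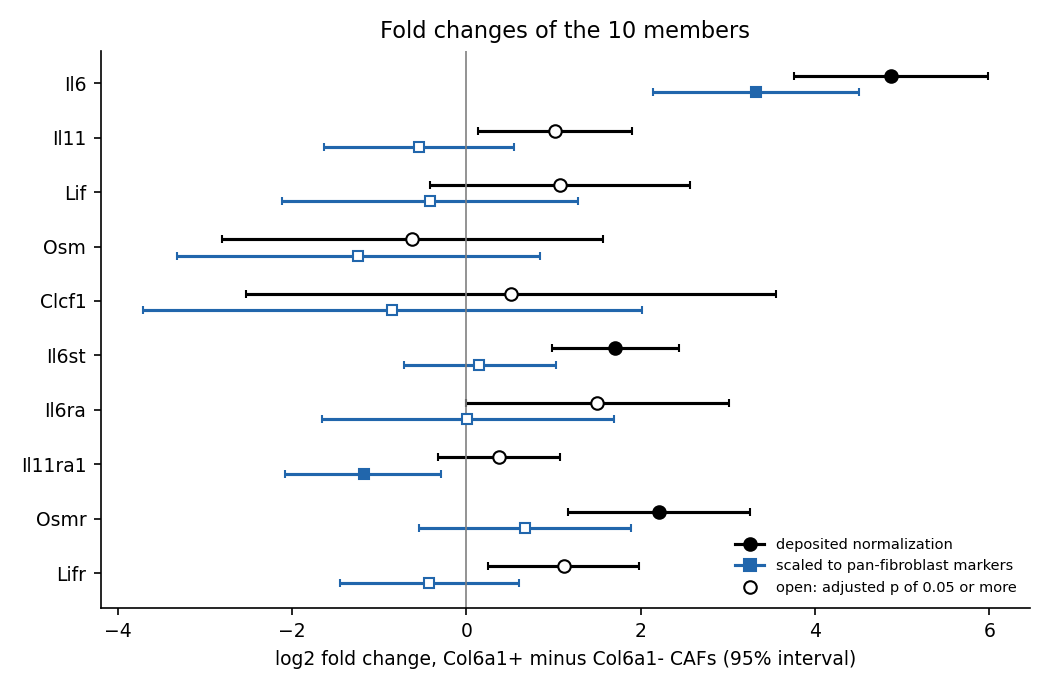
Log2 fold changes of the 10 members (Col6a1+ minus Col6a1- CAFs, horizontal) with 95% intervals, as deposited (black circles) and after scaling each library to 7 pan-fibroblast markers (blue squares), with filled symbols at an adjusted p under 0.05. Il6 is filled on both scales at 4.87 and 3.32, whereas Il6st falls from 1.71 to 0.15 and Osmr from 2.21 to 0.67.

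Markers of other cells also differed between the subsets, and their part in these results was not tested. The 10 epithelial markers summed to 5722, 6245 and 6365 normalized counts in Col6a1+ CAFs and to 19976, 33607 and 24161 in Col6a1- CAFs, with 7 called lower in Col6a1+ CAFs, although EpCAM+ cells had been removed. Epcam itself had 615 to 1074 normalized counts in Col6a1+ and 3107 to 4129 in Col6a1- CAFs. The 8 mural markers, which label pericytes and smooth muscle cells, were all called higher in Col6a1+ CAFs and summed to 65982, 46480 and 62640 against 2686, 2474 and 820. The 14 immune markers summed to 81 to 130 in Col6a1+ and 599 to 1130 in Col6a1- CAFs, with 2 called lower in Col6a1+ CAFs. Ptprc, which encodes CD45, had at most 2 and at most 8 normalized counts, respectively. Endothelial markers (8 genes, none called) summed to 122 to 259 in Col6a1+ and 312 to 550 in Col6a1- CAFs, while glial markers (5 genes, none called) summed to 55 to 73 and 29 to 76. Of the 6 erythroid markers, with sums of 110 to 1713 in Col6a1+ and 281 to 482 in Col6a1- CAFs, none was called. The 12 genes of the dissociation response summed to 40066 to 50557 in Col6a1+ and 24878 to 28385 in Col6a1- CAFs, of which Hspa1a and Hspa1b were called higher in Col6a1+ CAFs.

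**Figure D3:**
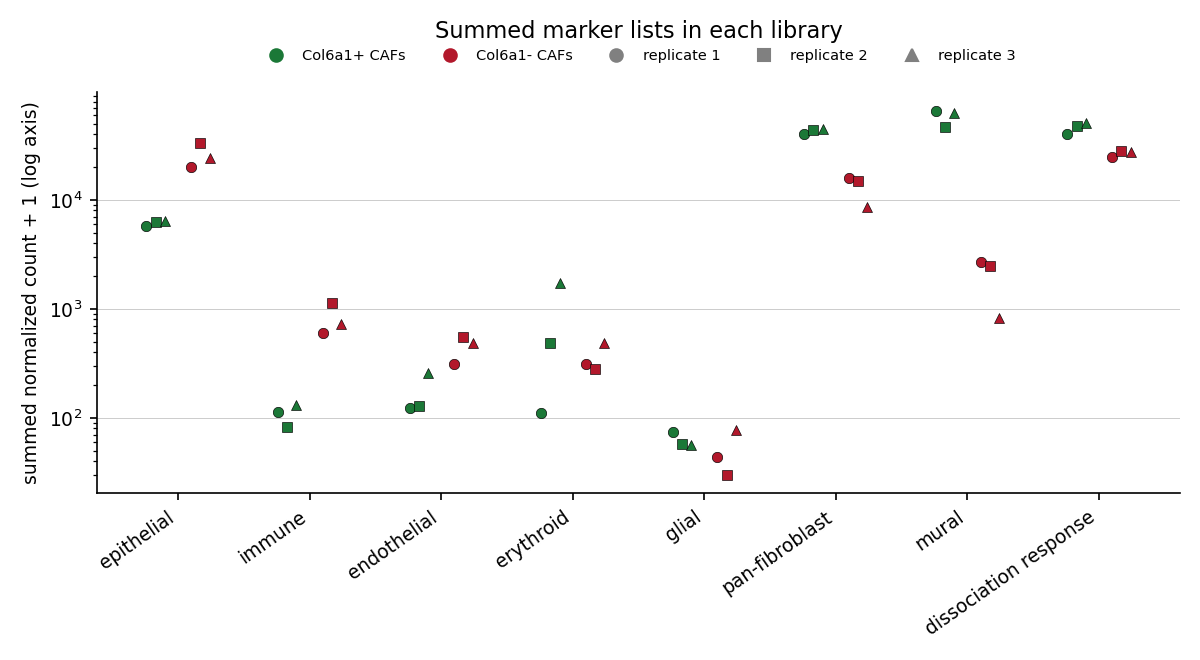
Summed normalized counts plus 1 of each marker list (vertical, log axis) in the 3 Col6a1+ (green) and 3 Col6a1- (red) CAF libraries, with the marker shape giving the replicate number. Col6a1+ libraries lie below Col6a1- libraries for epithelial, immune and endothelial markers and above them for pan-fibroblast, mural and dissociation response markers.

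The 7 pan-fibroblast markers (Col1a1, Col1a2, Col3a1, Dcn, Lum, Pdgfra and Vim) summed to 40535, 43994 and 44685 normalized counts in Col6a1+ CAFs and to 15769, 15003 and 8675 in Col6a1- CAFs, and 4 of 7 were called higher. Their log2 fold changes ran from 0.56 (Lum) to 2.50 (Col1a2). Pdgfra, at 2.04, is described in the paper as high in colonic fibroblasts that this Cre targets. These markers therefore need not be neutral between the subsets. When each library was instead scaled to the mean log2 level of these markers, a scaling chosen after seeing the data, the median of all genes moved, as a log2 fold change, from -0.27 to -1.20, and 233 genes (0.883%) were called higher and 7062 (26.7%) lower in place of 703 and 517. With limma-voom, which scales by library size, these numbers were 804 and 1006. Relative to the fibroblast markers, Il6 remained higher in Col6a1+ CAFs (log2 fold change 3.32, SE 0.55, limma adjusted p = 0.00119). Il6st had a log2 fold change of 0.15 (95% interval -0.72 to 1.03) and Osmr of 0.67 (95% interval -0.54 to 1.89), neither of which was called (limma adjusted p = 0.761 and 0.398). Il6ra had a log2 fold change of 0.01 (limma adjusted p = 0.990). Il11, Lif, Clcf1 and Lifr changed sign, to -0.54, -0.42, -0.85 and -0.43, and were not called. This scaling divides all genes of a library by the same factor, so log2 fold changes fell by a similar amount except at low counts. A sign change of a small positive value follows from that common shift and is not a separate result for each gene. Il11ra1 was called lower on this scale, with a log2 fold change of -1.18 (limma adjusted p = 0.0482), which is near the median of all genes. The median over the members was then -0.42.

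Of 57 further genes of the pathway, 54 were tested, and 7 were called higher and 1 lower in Col6a1+ CAFs, against the 2.66% and 1.96% of all genes. Their median log2 fold change was 0.43. In the fit over the 13515 genes averaging at least 10, 8 pathway genes were called higher and 1 lower, against 815 and 608 of all these genes. Among the 7 genes called higher over all genes tested were Socs2, Socs3, Cebpb, Cebpd, Il1r1 and Tnfrsf1a, and the gene called lower was Adam10. None of these named genes was called with the block over all genes, a fit that called 0 genes in all. All of them were called with the block over genes averaging at least 10. On the scale of the pan-fibroblast markers none of the 54 was called higher and 13 were called lower, where 0.883% of all genes were called higher and 26.7% lower, so that the count of lower genes is near the background.

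**Figure D4:**
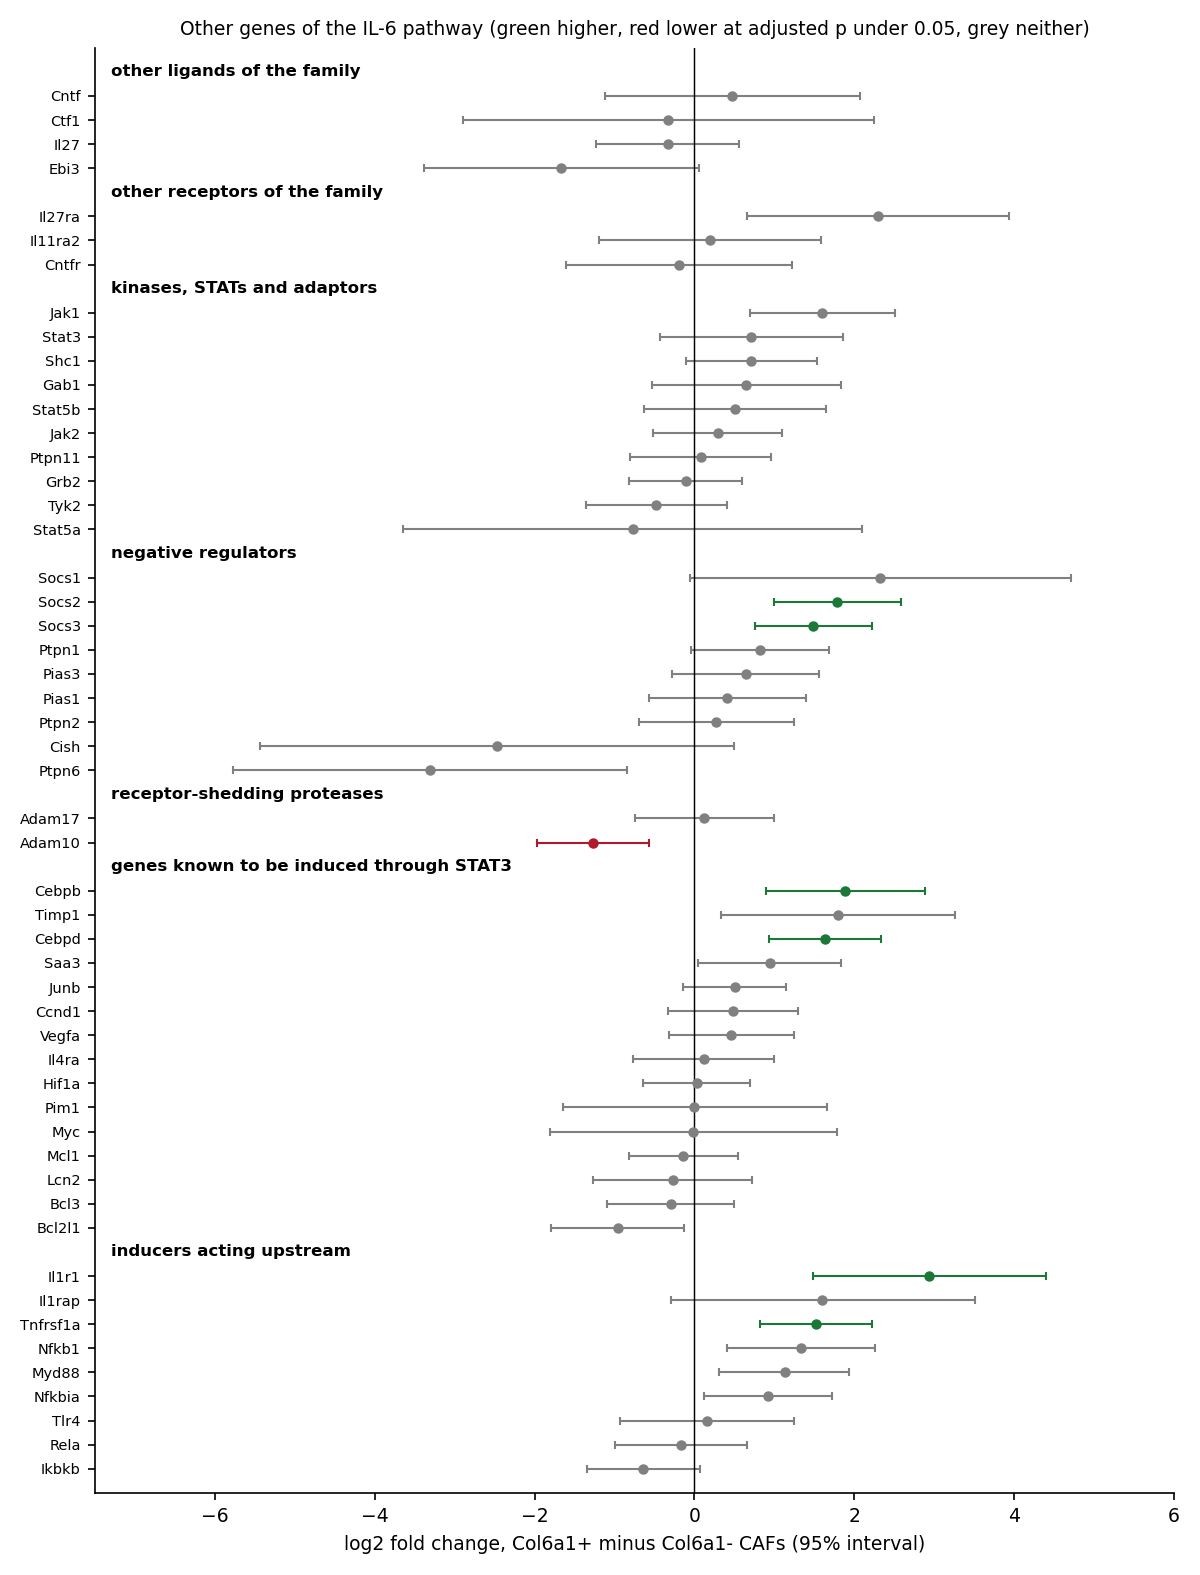
Log2 fold changes (Col6a1+ minus Col6a1- CAFs, horizontal) with 95% intervals of 52 of the 54 tested pathway genes, grouped by role, in green where called higher, red where called lower and grey otherwise. The 6 green genes stand at 1.49 or more, and the red gene is Adam10 at -1.27.

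Among the other ligands of the family none of 4 tested genes was called, and Ctf2 and Il31 were at 0 in all libraries. Ebi3, a subunit of IL-27, had 0 normalized counts in every Col6a1+ library and 0, 7 and 3 in Col6a1- CAFs (limma adjusted p = 0.331), and Il27 had a single normalized count in all (limma adjusted p = 0.642). Among the other receptors none of 4 tested genes was called, and Il31ra was at 0 in all libraries. Il27ra, the receptor chain for IL-27, had 9, 2 and 3 normalized counts in Col6a1+ CAFs and 0 in each Col6a1- library (limma adjusted p = 0.123).

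Of the 11 kinases, STATs and adaptors, 1 was called higher and none lower, and the median log2 fold change of the list was 0.51. Stat3, the main STAT of the family, was singled out after its values were seen. It had 216, 750 and 551 normalized counts in Col6a1+ CAFs and 161, 250 and 501 in Col6a1- CAFs, which overlapped, and its log2 fold change of 0.71 was not called (SE 0.52, limma adjusted p = 0.575).

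Of the 9 negative regulators, 2 were called higher, both of the SOCS family, whose members are themselves induced by STATs. Socs3, which binds gp130, had 1657, 1397 and 1151 normalized counts in Col6a1+ CAFs and 748, 460 and 350 in Col6a1- CAFs. All Col6a1+ libraries thus lay above the Col6a1- libraries, with a log2 fold change of 1.49 (SE 0.33, limma adjusted p = 0.0303). Socs2, best known as a brake on growth hormone signalling, had 235, 248 and 262 against 73, 95 and 52, a log2 fold change of 1.79 (SE 0.36, limma adjusted p = 0.0189). The 7 other regulators were not called, and they include the family members Socs1 and Cish. Socs1 had a log2 fold change of 2.32 (limma adjusted p = 0.328). Cish went the other way on average, with 0, 65 and 64 normalized counts in Col6a1+ CAFs and 104, 63 and 107 in Col6a1- CAFs. Its log2 fold change was -2.47 (limma adjusted p = 0.424), and by pair the log2 differences were -6.71, 0.04 and -0.73. The largest of these came with the 0 in Col6a1+ replicate 1.

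Of the 15 genes known to be induced through STAT3, 2 were called higher and none lower, and the median of the list was 0.12. Both encode C/EBP transcription factors. Cebpb had 388, 1399 and 916 normalized counts in Col6a1+ CAFs and 161, 271 and 221 in Col6a1- CAFs (log2 fold change 1.89, SE 0.45, limma adjusted p = 0.0390). Cebpd had 1272, 2291 and 1798 against 447, 741 and 528 (log2 fold change 1.63, SE 0.32, limma adjusted p = 0.0165). In both genes the subsets did not overlap and Col6a1+ replicate 1 was the lowest of its subset, in contrast to Il6. Of the proteases that can shed the IL-6 receptor, Adam10 had 106, 110 and 100 normalized counts in Col6a1+ CAFs and 299, 226 and 245 in Col6a1- CAFs, and its log2 fold change was -1.27 (SE 0.32, limma adjusted p = 0.0488). Adam17 was not called (log2 fold change 0.12, limma adjusted p = 0.878).

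Receptors and mediators of the signals that induce Il6 were a further list of 9 genes, of which 2 were called higher and none lower, with a median log2 fold change of 1.13. Il1r1, the signalling receptor of IL-1, had 191, 118 and 84 normalized counts in Col6a1+ CAFs and 42, 9 and 9 in Col6a1- CAFs. The subsets did not overlap, and the log2 fold change was 2.94 (SE 0.66, limma adjusted p = 0.0315). Tnfrsf1a, the TNF receptor known as p55, had 532, 739 and 848 normalized counts in Col6a1+ CAFs and 245, 306 and 186 in Col6a1- CAFs. It did not overlap either, and its log2 fold change was 1.52 (SE 0.32, limma adjusted p = 0.0230).

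**Figure D5:**
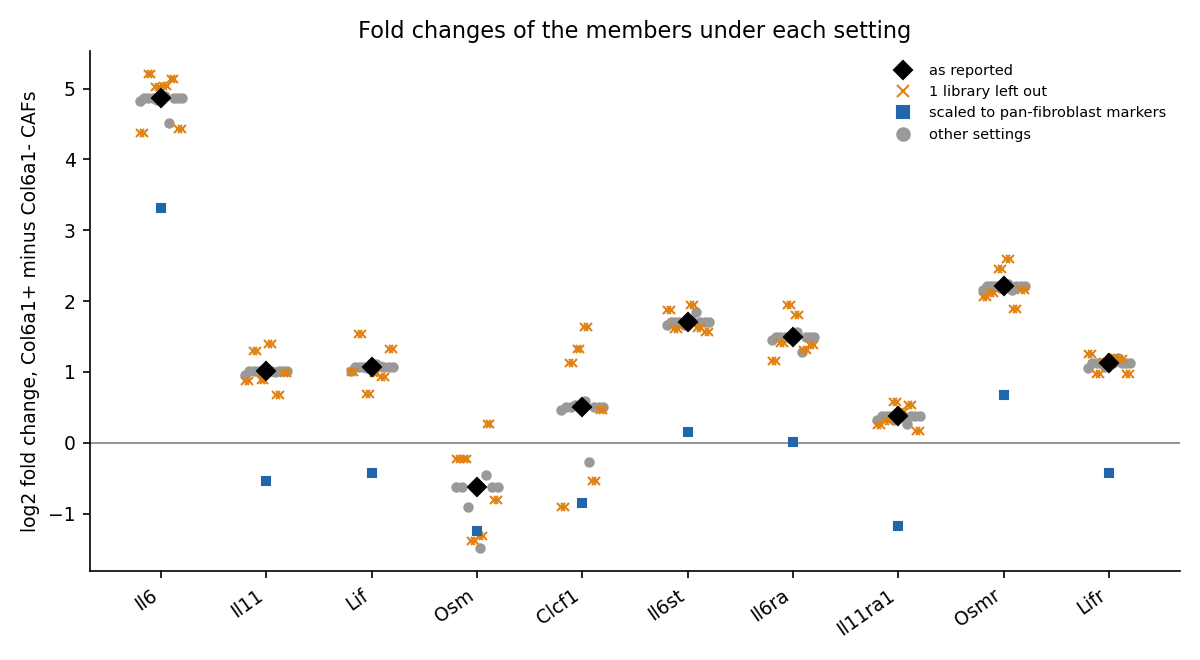
Log2 fold changes of the 10 members (vertical) as reported (black diamonds), with 1 library left out (orange crosses), after scaling to pan-fibroblast markers (blue squares) and under the other settings (grey points). Il6 stays between 3.32 and 5.20 in all settings, whereas Clcf1 and Osm lie on both sides of 0 when libraries are left out.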

How the data were processed

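RNA of sorted CAFs was measured in 6 libraries, 3 per subset, grouped by the labels. The authors mapped QuantSeq reads with TopHat2 to mm10 and the unmapped reads with Bowtie2, counted them per gene with GenomicRanges (strandedness is not given in the sources used here), and normalized them with DESeq through metaseqR. Per the file headers, the deposited values are log2 of the normalized count plus 1, and 100% of them return whole numbers (tolerance 1e-06). The deposited p-value and fold change columns hold the authors' own comparison and were not used, nor were 6 further columns of per-sample values.

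The log2 values were fitted with limma 3.58.1 in R 4.3.3 (group means, eBayes with trend) over 26402 genes whose 6 normalized counts summed to 1 or more, adjusted by the Benjamini-Hochberg method, and called at an adjusted p under 0.05. The design named limma for these values. Since scaling and rounding preceded deposition, the values are not reads, and intervals and floors rest on the spread between libraries and on 3 counts for a 0. The fit was tested on simulated data. Deviations from the subset means were taken over 13515 genes with a mean of at least 10. They correlated by 0.245, 0.125 and 0.144 between libraries of the same number and by -0.245 to 0.150 otherwise. Col6a1+ replicate 2 correlated more with Col6a1- replicate 3 (0.150) than with Col6a1- replicate 2 (0.125). These values therefore did not settle the pairing of replicates 2 and 3. The numbers were read as pairs by their labels, and the block was fitted as an alternative.

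The members and lists were chosen with earlier results of these data known. All 10 members are named. Of each pathway list every called gene is named, or, with none, the 2 with the smallest unadjusted p. Marker lists are given by their sums. A few genes that this rule covers are not reported here. Exact permutation tests used SciPy 1.17.1. Near-identical transcripts were searched with BLAST 2.17.0 in GENCODE vM21 (at least 95% identity over at least 100 bases), promoter windows came from RefSeq, and plots were drawn with matplotlib 3.10.9. Alternatives were scaling by library totals, no filter, filters at 10 normalized counts (as a mean, or in every library), the replicate block, limma-voom, omission of single libraries with the filter applied again, a pseudocount of 0.1, array quality weights and unadjusted p-values. Added after seeing the data were scaling to pan-fibroblast markers, the block over a mean of at least 10, and the fits without genes that had no residual variance.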

Additional observations from a re-analysis of the deposited data

How the results depend on the processing

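The calls depended on genes that the model fits exactly, which have no residual variance and lower the prior degrees of freedom that limma estimates. Without the block these genes have identical values within each group, and with the block they have the same log2 difference in each pair. With the replicate block the limma fit (2.59 prior degrees of freedom) called 0 genes, 0 of 10 members and 0 pathway genes (smallest adjusted p 0.0612), although 4418 genes, 6 members and 19 pathway genes had an unadjusted p under 0.05. Leaving out the 246 genes with no residual variance, the block called 3073 genes, 4 members (Il6, Il11, Il6st and Osmr) and 16 pathway genes, but with infinite prior degrees of freedom, so its p-values rest on the variance trend alone. The block over a mean of at least 10 called 1852 genes in all and the same 4 members. Without 26 such genes the fit with no block called 1444 genes and 3 members.

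Without the filter, which adds constant rows at 0, limma called 28 genes, 0 members and 0 pathway genes, with 3794, 5 and 16 at an unadjusted p under 0.05. Leaving out 1 library gave 0 to 2 members, 0 to 4 pathway genes and 12 to 895 genes in all, and 2 to 3, 3 to 13 and 790 to 2582 with the genes of no residual variance also left out. In the latter, Il6 and Il6st were called in 6 of 6 fits and Osmr in 4 of 6, the exceptions being those without Col6a1+ replicate 2 (adjusted p = 0.0529) and Col6a1- replicate 2 (adjusted p = 0.0663). Array quality weights called 2000 genes (1031 higher and 969 lower), and a pseudocount of 0.1 called 561 genes higher and 336 lower, with 4 pathway genes higher and 0 lower (17 of either direction at an unadjusted p under 0.05). At unadjusted p-values 5 members, 14 pathway genes and 3880 genes passed. Scaling to pan-fibroblast markers called 13 pathway genes and 7295 genes in all, and reversed Il11 (-0.54), Lif (-0.42), Clcf1 (-0.85), Il11ra1 (-1.18) and Lifr (-0.43). Clcf1 was also reversed with array quality weights (-0.27) and ranged from -0.91 to 1.63 when 1 library was left out, and Osm from -1.39 to 0.27 (the latter without Col6a1- replicate 2). Apart from where it is stated, the cause was not tested. The other totals of calls stayed within 1.5 times those reported. At 8 counts or fewer for Osm, and 11 or fewer for Clcf1 outside replicate 1, no difference of these genes was called, and the part of depth in this was not tested.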
